A study of Mus with 4 samples.

Results

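Genes of the plasminogen activation system were followed in subcutaneous mouse tumors across a hairpin against Nrf3 and a high-fat diet. The genes were chosen by name with earlier results of these arrays known: the activators Plat and Plau, the urokinase receptor Plaur, the serpins Serpine2, Serpinb2 and Serpinb5, and the plasminogen-binding pair Anxa2 and S100a10. Of these 8 genes 7 have a probe set under their symbol in the platform annotation, 1 each, among 19505 named genes. Serpine2, which encodes protease nexin-1, is not among the named probe sets and was not analysed here. The opposite diet directions of Serpinb2 and Serpinb5 were part of the choice, so the differences below are descriptions and carry no test.

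Renca, a line of BALB/c renal adenocarcinoma, was used as the tumor source, and its cells stably expressed an shRNA to Nrf3 (shNrf3) or an shRNA control (shCtrl). Male BALB/cCrSlc mice, 4 to 6 weeks old when bought, ate a high-fat diet (HFD) or normal chow (NC) for 17 weeks before cells were injected under the skin of the flank, and tumors were taken 2 weeks later. The groups are shNrf3-HFD, shCtrl-HFD, shNrf3-NC and shCtrl-NC, with 1 Affymetrix array each. All 4 carry a hairpin, the hairpin lies in the injected cells and not in the host, and the labels do not say how many tumors an array holds or whether a cell line is 1 clone. With single arrays no difference can be set against the spread of replicates, and precision is limited by their number. Values are log2 signals, so a difference of 1 is 2-fold.

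Plasmin, the protease that dissolves fibrin and opens up matrix, is made when tissue-type activator (Plat) or urokinase (Plau) cuts plasminogen. Urokinase works at the cell surface on its receptor (Plaur), and the annexin A2 and S100A10 complex holds plasminogen there. Serpins such as plasminogen activator inhibitor 2 (Serpinb2) trap the activators, whereas maspin (Serpinb5), a serpin of the same clade made by epithelial cells, is not an inhibitor of these proteases. In tumors the system is known from invasion and from wound-like stroma.

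Nfe2l3, the gene targeted by the hairpin, had a signal of 6.05 for the label shNrf3-HFD and 5.77 for the label shCtrl-HFD. Its signal was 5.56 for the label shNrf3-NC and 6.22 for the label shCtrl-NC. With the hairpin it was thus not lower in HFD (difference 0.28) and was lower in NC (-0.66), at levels well under the upper range of the array's negative control rows (95th percentiles of 8.97 to 9.35), and every construct direction below rests on the labels. The epithelial keratins Krt8 (14.32 to 15.08) and Krt18 (14.46 to 15.90) and E-cadherin (Cdh1, 13.34 to 14.64) were high on all arrays, while the renal tubule genes Pax8, Pax2, Cdh16 and Lrp2 read under the control median, that is the median of those negative control rows (5.35 to 5.39), on all 4. Array shNrf3-NC also stood apart in skeletal muscle genes. The log2 of the summed signal of 10 muscle markers was 9.27 on shNrf3-HFD, 10.6 on shCtrl-HFD, 13.9 on shNrf3-NC and 10.5 on shCtrl-NC. For 10 adipocyte markers it was 14.57, 16.03, 16.47 and 14.95 in the same order, so shCtrl-HFD was high as well as shNrf3-NC. Past the level filter used below, 6 of 7 were 1.5-fold or more lower in HFD with shNrf3 (14.4% of all genes). With shCtrl 5 of 7 were higher in HFD (31.2%). For shNrf3 against shCtrl, 6 of 7 were higher in NC (26.8%) and 6 of 7 lower in HFD (20.8%).

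**Figure D1:**
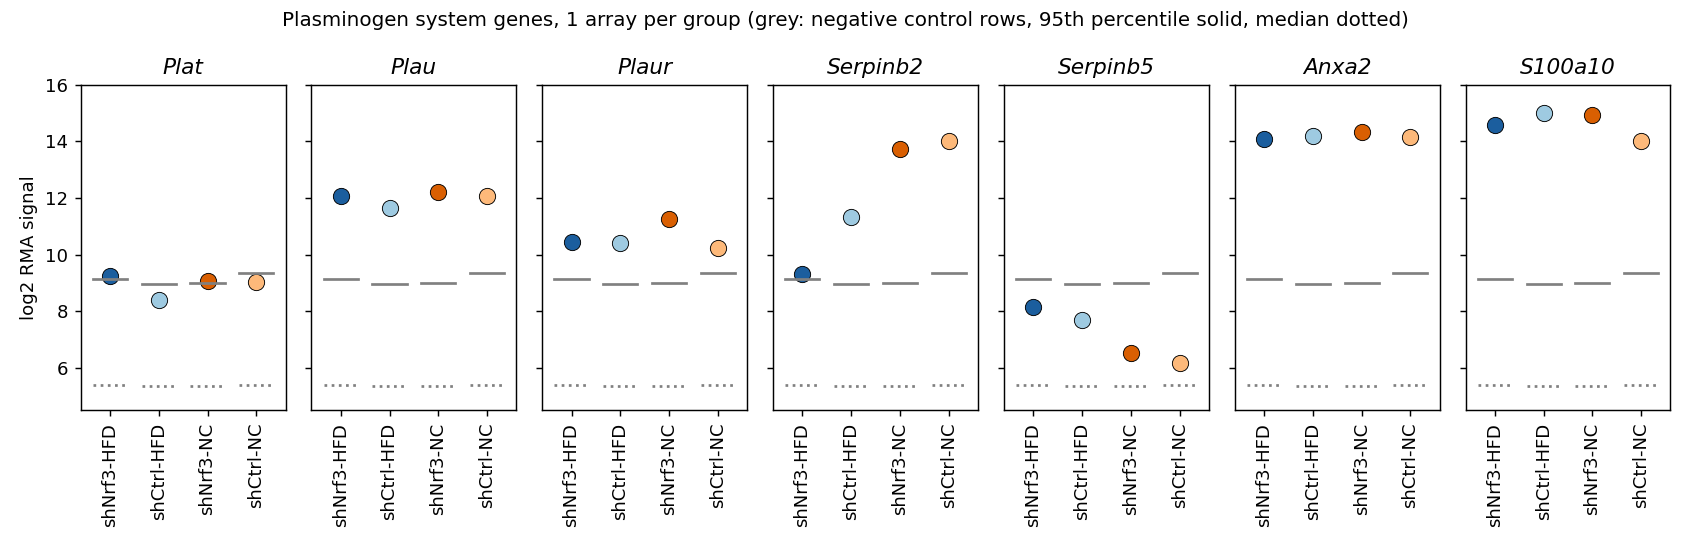
Log2 RMA signal (y axis) of 7 plasminogen system genes on the 4 arrays (x axis, 1 point an array), with the 95th percentile (solid) and the median (dotted) of the negative control rows of each array in grey. Serpinb2 sits at 9.32 and 11.33 on the HFD arrays and at 13.73 and 14.01 on the NC arrays, Serpinb5 lies under the solid line on all 4, and Anxa2 spans 0.25.

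Serpinb2 was lower in the HFD tumors and showed the widest range of the 7 genes. It read 9.32 on shNrf3-HFD and 11.33 on shCtrl-HFD, against 13.73 on shNrf3-NC and 14.01 on shCtrl-NC. Both HFD readings lay under both NC readings, but this diet direction chose the gene, so nothing is read from that. The lowest reading lay just above the 95th percentile of the control rows of its array (9.13). HFD minus NC was -4.41 with shNrf3, which is 21.3-fold lower, and -2.68 with shCtrl, which is 6.43-fold lower.

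Among the 10021 genes past a filter on level (a mean of 5.73 or more), only 14 were as low or lower in HFD with shNrf3, Serpinb2 included, and only 5 with shCtrl. The same 2 bounds together held for 3 genes. Beside Serpinb2 they were Mup22 and Mup9, named here after their values were seen, whose near-identical family makes their probe sets uncertain. Between constructs Serpinb2 was 4.02-fold lower with shNrf3 in HFD (difference -2.01), where 55 of the 10021 genes were as low or lower, and differed by -0.28 in NC. The construct difference in HFD minus that in NC was -1.73. After quantile normalization the construct differences were -1.83 in HFD and -0.70 in NC, both past 1.5-fold. After cyclic loess they were -1.86 and -0.54, the latter under 1.5-fold. The HFD construct comparison and the shNrf3 diet comparison share the shNrf3-HFD array, the one with the lowest reading.

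Serpinb5 went the other way with diet. It read 8.14 on shNrf3-HFD and 7.68 on shCtrl-HFD, against 6.52 on shNrf3-NC and 6.16 on shCtrl-NC. Both HFD readings lay above both NC readings, and nothing is read from that either, since this direction chose the gene. HFD minus NC was 1.62 with shNrf3 (3.08-fold higher) and 1.52 with shCtrl (2.86-fold higher). All 4 readings lay between the median and the 95th percentile of the control rows. With readings under the 75th percentile of those rows (6.58 to 6.82) set to it, the shCtrl difference was 0.86 and the shNrf3 difference 1.56.

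Of the 10021 genes, 20 were as high or higher than Serpinb5 in HFD with shNrf3 and 429 with shCtrl, where the median of all genes was itself 0.26. Both bounds together held for 5 genes, the others being Gzmg, Sh2d1b1, Stfa2 and Rnf152, named after their values were seen. Between constructs Serpinb5 differed by 0.46 in HFD and 0.36 in NC, both under 1.5-fold. With quantile normalization the HFD difference was 0.64, which is past 1.5-fold.

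In counts, 212 of the 10021 genes (2.12%) were 1.5-fold or more lower in HFD with both constructs, and Serpinb2 was the member among them. Another 276 (2.75%) were higher with both, and Serpinb5 was the member among those. These directions chose the 2 genes, so nothing is read from the shares. No other member was past 1.5-fold the same way with both constructs.

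**Figure D2:**
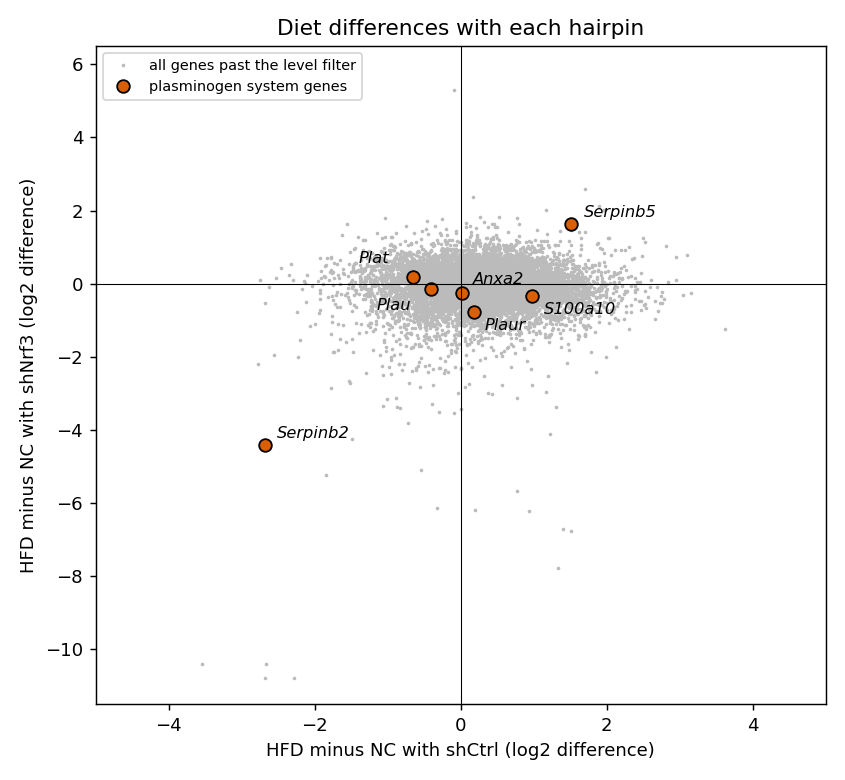
HFD minus NC as a log2 difference with shCtrl (x axis) and with shNrf3 (y axis) for the 10021 genes past the level filter (grey) and the 7 plasminogen system genes (orange). Serpinb2 lies far out at -2.68 and -4.41, Serpinb5 at 1.52 and 1.62, and the other 5 within the cloud of all genes.

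The 2 serpin genes belong to 1 gene cluster. In the mouse RefSeq gene table (GRCm38.p6, used only for names and gene order) both lie on chromosome 1, with 8 protein-coding genes between them, and all 8 are clade B serpins. Of those 8, 7 have a named probe set and 0 passed the level filter. Serpinb7, Serpinb12, Serpinb13, Serpinb3c and Serpinb3d read below the median of the negative control rows on all 4 arrays. The genes just outside on the Serpinb5 side, Vps4b (an endosomal sorting ATPase) and Kdsr (a sphingolipid synthesis enzyme), differed by less than 1.5-fold by diet. HFD minus NC was 0.25 with shNrf3 and -0.30 with shCtrl for Vps4b, and 0.44 and 0.30 for Kdsr. For Bcl2, the apoptosis inhibitor gene that lies next on that side, it was -0.16 with shNrf3 and 1.20 with shCtrl. On the Serpinb2 side Serpinb10 differed by 0.27 and -0.76 and read near the control median, and Serpinb8 (-1.06 and 0.05) and Cdh7 (0.85 and -1.14) did not pass the level filter. None of these 6 flanking genes was past 1.5-fold the same way with both constructs.

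The activators varied far less than the 2 serpins. Plau, the urokinase gene, read 12.08 on shNrf3-HFD and 11.65 on shCtrl-HFD, against 12.22 on shNrf3-NC and 12.06 on shCtrl-NC. The shCtrl-HFD reading was the lowest of the 4, and none of its 4 differences reached 1.5-fold: HFD minus NC was -0.14 with shNrf3 and -0.41 with shCtrl, and shNrf3 minus shCtrl was 0.43 in HFD and 0.16 in NC. After cyclic loess between arrays the shCtrl diet difference was -0.78 and the HFD construct difference 0.59, both past 1.5-fold.

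Plat, the tissue-type activator gene, read 9.25 on shNrf3-HFD and 8.38 on shCtrl-HFD, against 9.08 on shNrf3-NC and 9.04 on shCtrl-NC. Here too shCtrl-HFD was the low array, and the other 3 lay close together. Plat was 1.82-fold higher with shNrf3 in HFD (difference 0.87) and differed by 0.04 in NC. HFD minus NC was 0.17 with shNrf3 and -0.66 with shCtrl, and with each array centred on its median the shCtrl value was -0.55, under 1.5-fold. Only the 2 shNrf3 readings reached the 95th percentile of the control rows.

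Plaur, the receptor that docks urokinase at the cell surface, read 10.46 on shNrf3-HFD and 10.40 on shCtrl-HFD, against 11.24 on shNrf3-NC and 10.22 on shCtrl-NC. One array, shNrf3-NC, was high, and the other 3 lay within a narrow range. With shNrf3 Plaur differed by 0.06 in HFD and was 2.04-fold higher in NC (difference 1.03). HFD minus NC was -0.78 with shNrf3 and 0.19 with shCtrl. The high array is the one with the highest muscle and fat signal, and the fat signal was also high on shCtrl-HFD. Macrophage markers, from cells known to carry the receptor, were higher on shNrf3-NC too. With shNrf3, 5 of 9 measured macrophage markers were 1.5-fold or more higher in HFD, and 9 of 9 in NC, beside 9.12% and 26.8% of all genes past the filter. The log2 of their summed signal was 16.7 on shNrf3-HFD and 15.7 on shCtrl-HFD, against 17.3 on shNrf3-NC and 15.8 on shCtrl-NC, and none read below the control median on all arrays. The part of macrophage, muscle or fat RNA in the Plaur difference was not tested, and in bulk tumors fewer cells of a type and less RNA per cell cannot be told apart.

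The genes of the plasminogen-binding pair differed from each other. Anxa2, the annexin of the pair, read 14.08 on shNrf3-HFD and 14.19 on shCtrl-HFD, against 14.32 on shNrf3-NC and 14.17 on shCtrl-NC. Its 4 differences ran from -0.25 to 0.16. S100a10, its partner, which binds plasminogen directly, read 14.58 on shNrf3-HFD and 14.99 on shCtrl-HFD, against 14.93 on shNrf3-NC and 14.02 on shCtrl-NC. The shCtrl-NC array was the low one. In HFD minus NC, S100a10 differed by -0.35 with shNrf3 and was 1.96-fold higher with shCtrl (0.97). In shNrf3 minus shCtrl, it differed by -0.41 in HFD and was 1.88-fold higher in NC (0.91). These 2 higher values share the shCtrl-NC array. After quantile normalization they were 0.56 and 0.49, both under 1.5-fold.

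**Figure D3:**
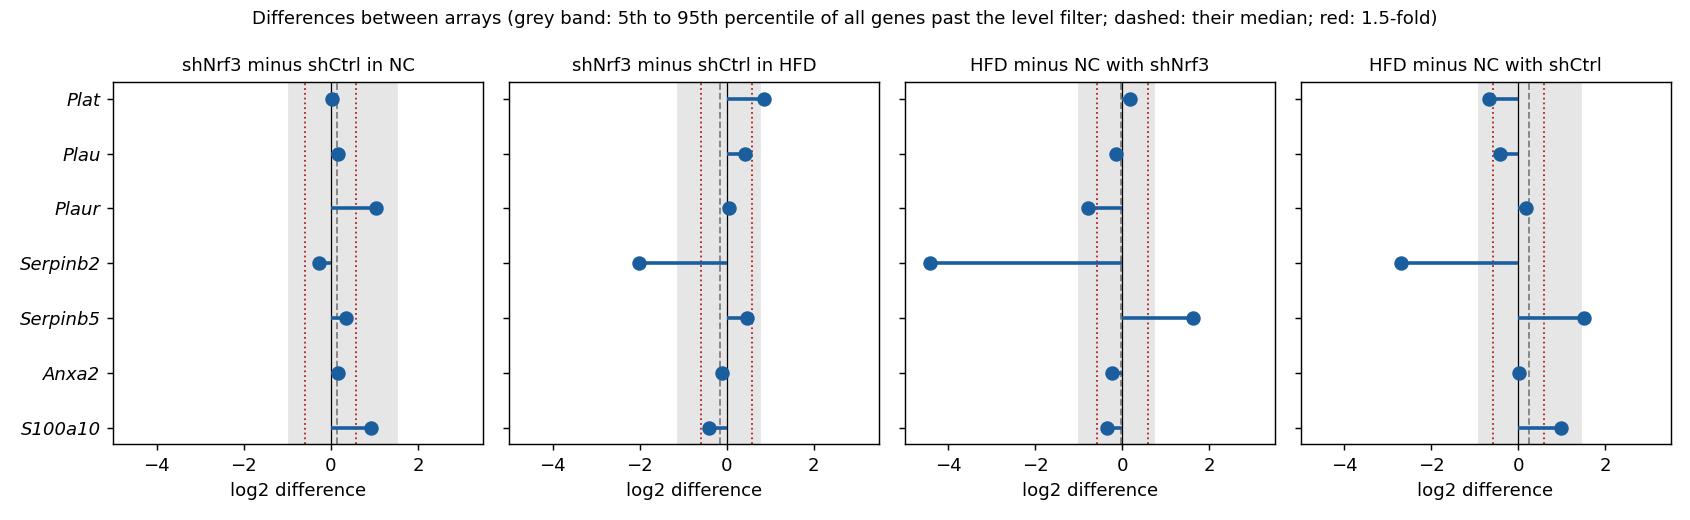
Log2 differences (x axis) of the 7 genes (y axis) in the 4 comparisons, with the 5th to 95th percentile of all 10021 genes as a grey band, their median dashed and 1.5-fold as dotted red lines. Serpinb2 lies left of the band in 3 comparisons, reaching -4.41, and Serpinb5 right of it in both diet comparisons, at 1.62 and 1.52.

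Differences of 1.5-fold or more were counted over the 7 genes. With shNrf3 in HFD 1 was higher (Plat), where 9.12% of all genes were, and 1 lower (Serpinb2), where 20.8% were. In NC 2 were higher (Plaur and S100a10) and 0 lower, beside 26.8% and 13.5% of all genes. For diet with shNrf3, 1 was higher (Serpinb5) and 2 lower (Serpinb2 and Plaur), beside 8.84% and 14.4%. For diet with shCtrl, 2 were higher (Serpinb5 and S100a10) and 2 lower (Serpinb2 and Plat), beside 31.2% and 10.7%. In both diets alike, 0 members were higher or lower with shNrf3 in the values as deposited, beside 3.06% and 3.71% of all genes. After quantile normalization Serpinb2 was lower with shNrf3 in both diets. The choice of the genes used these comparisons, and nothing is read from the counts.

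The medians of the 7 were 0.06 for shNrf3 minus shCtrl in HFD (-0.14 over all genes), 0.16 in NC (0.14), -0.25 for HFD minus NC with shNrf3 (-0.03) and 0.03 with shCtrl (0.26). The balance over all genes depended on the scaling. Of genes past 1.5-fold in HFD, 30.5% were higher with shNrf3, against 45.2% after cyclic loess and 48.3% after quantile normalization. In NC 66.6% were, against 54.5% and 49.6%. For diet with shNrf3 38.1% were higher in HFD, against 40.3% and 48.6%, and for diet with shCtrl 74.4%, against 53.4% and 51.9%.

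Among other genes of the system, the RNA of plasminogen, the substrate of the activators, was not measurable, and the arrays do not read the protein. Plasminogen (Plg), made mainly by the liver, and alpha-2-antiplasmin (Serpinf2), its main plasma inhibitor, read below the median of the control rows on all 4 arrays, as did F12, Hpn, Serpina5 and Fgg. Of 27 other system genes 22 were measured and 12 passed the level filter. Of those 12, 0 were higher and 5 lower in HFD with shNrf3, beside 8.84% and 14.4% of all genes, and 2 were higher and 3 lower with shCtrl, beside 31.2% and 10.7%. For shNrf3 against shCtrl, 0 were higher and 4 lower in HFD (9.12% and 20.8% of all genes), and in NC 3 were higher and 3 lower (26.8% and 13.5%).

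Of 3 matrix protease genes in the list, Mmp3 and Mmp9, whose proenzymes plasmin can help activate, were 1.5-fold or more lower in all 4 comparisons. The third, Mmp2, was lower in HFD with shNrf3 (-2.31) and with shNrf3 in HFD (-2.09), and differed by -0.30 for diet with shCtrl and -0.08 for construct in NC. Stromelysin-1 (Mmp3) read 11.95 on shNrf3-HFD and 13.30 on shCtrl-HFD, against 12.96 on shNrf3-NC and 14.20 on shCtrl-NC. Its diet differences were -1.01 with shNrf3 and -0.90 with shCtrl, and its construct differences -1.35 in HFD and -1.23 in NC. Gelatinase B (Mmp9) read 9.02 on shNrf3-HFD and 10.02 on shCtrl-HFD, against 9.67 on shNrf3-NC and 11.45 on shCtrl-NC. Both genes were thus highest on shCtrl-NC and lowest on shNrf3-HFD. Vitronectin (Vtn), a plasma and matrix protein that binds the urokinase receptor, read under the control median in both HFD tumors. HFD minus NC was -1.05 or lower with shNrf3 and -1.84 or lower with shCtrl.

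Other clade B serpins did not share the wide range of Serpinb2. Of 24 listed, 23 were measured, 7 passed the level filter and 12 read below the control median on all 4 arrays. Past the filter 0 were higher and 4 lower in HFD with each construct. All-gene shares were 8.84% and 14.4% with shNrf3 and 31.2% and 10.7% with shCtrl. The 4 were not the same genes, and only Serpinb6b and Serpinb9b were lower with both constructs. Over all 23, with readings under the control median set to it, 5 were lower with shNrf3, with Serpinb8 (-0.68) added. With shCtrl 3 were lower, since Serpinb9b then differed by -0.58. Serpinb6b read 9.94 on shNrf3-HFD and 9.70 on shCtrl-HFD, against 10.80 on shNrf3-NC and 10.51 on shCtrl-NC, differences of -0.86 and -0.82. Serpinb9, which in the mouse protects cells from granzyme B, was higher with shNrf3 in both diets, by 1.02 in HFD and 0.70 in NC. Its relative Serpinb9b was higher with shNrf3 by 0.74 or more in HFD and 0.84 in NC, at levels of 4.93 to 6.78 near the control median. Copies in this family are close in sequence, so single probe sets are uncertain.

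**Figure D4:**
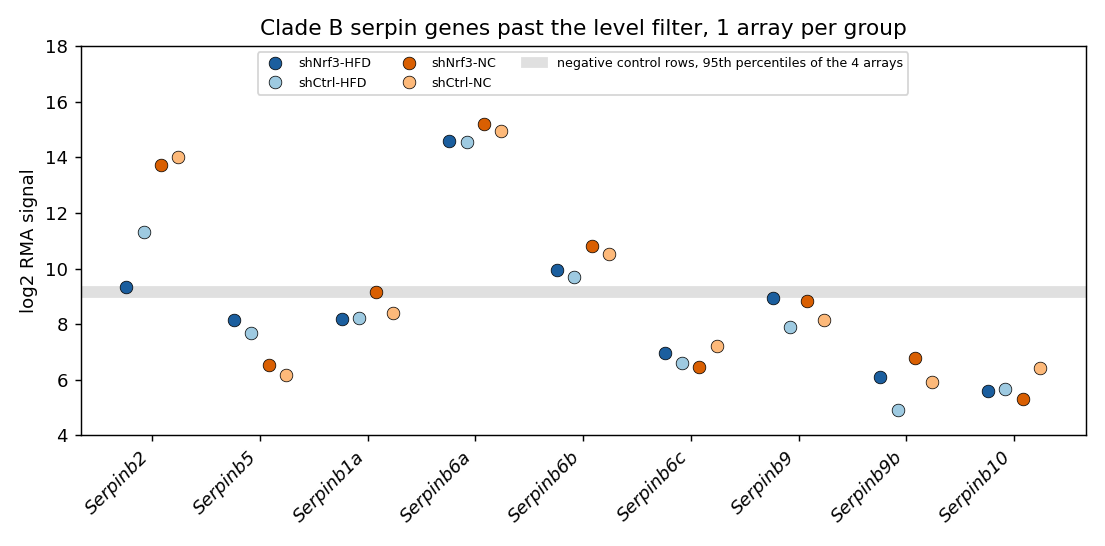
Log2 RMA signal (y axis) of Serpinb2, Serpinb5 and the 7 other clade B serpin genes past the level filter (x axis), 1 point for each of the 4 arrays, with the range of the 95th percentiles of the negative control rows as a grey band. The 4 points of Serpinb2 span 4.69 and those of Serpinb5 1.98, and most other genes lie near or below the band.

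Of 14 other annexin and S100 genes 13 passed the level filter. In HFD 0 were higher and 3 lower with shNrf3 (8.84% and 14.4% of all genes), and 4 were higher and 1 lower with shCtrl (31.2% and 10.7%). With shNrf3, 1 was higher and 3 lower in HFD (9.12% and 20.8%), and 5 were higher and 0 lower in NC (26.8% and 13.5%). The phospholipid-binding annexin Anxa4 was higher with shNrf3 in both diets, by 0.70 in HFD and 0.92 in NC. Anxa8, another annexin, was lower in HFD with both constructs, by -0.65 with shNrf3 and -0.61 with shCtrl.

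The genes nearest in profile were sought for the 3 members that span 1 or more, by the Euclidean distance between profiles over the 4 arrays, each centred on its own mean. Nearest to Serpinb2 were Cdo1, a cysteine-degrading enzyme (distance 0.92), Cyp2e1, a cytochrome P450 (1.12), and the matrix proteoglycan Dcn (1.38). Cdo1 and Cyp2e1 read below the control median on shNrf3-HFD, and none of the 3 had a shCtrl diet difference as low as that of Serpinb2 (-1.49, -1.84 and -1.06). Nearest to Serpinb5 were Rnf152, a ubiquitin ligase (0.13), the folate carrier Slc19a1 (0.14) and Epb41l4b (0.20). Rnf152 read below the control median on both NC arrays. In the RefSeq gene order 8 protein-coding genes separate it from Serpinb5. Nearest to Plaur were Ttc26 (0.06), Gpr141 (0.07) and the arginase gene Arg2 (0.08). With 4 points a profile, small distances are common for genes of narrow range.

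Markers of cells known to make the 2 serpins, and of stroma, were read beside them. Keratinocytes make both serpins, and 4 of 10 keratinocyte markers passed the level filter. Of these 4, 1 was higher and 0 lower in HFD with shNrf3 (median -0.19), and 3 were higher and 0 lower with shCtrl (median 1.14), beside 8.84% and 14.4% of all genes with shNrf3 and 31.2% and 10.7% with shCtrl. Over all 10, with readings under the control median set to it, 1 was higher with shNrf3 and 5 with shCtrl. Their summed log2 signal was 10.04 on shNrf3-HFD and 11.3 on shCtrl-HFD, against 9.39 on shNrf3-NC and 10.3 on shCtrl-NC. The keratin Krt14 read 9.43 on shNrf3-HFD and 10.22 on shCtrl-HFD, against 8.35 on shNrf3-NC and 9.52 on shCtrl-NC, while Dsg3, Lor and Ivl lay below the control median on all 4 arrays. Of the keratinocyte markers only Krt14 was thus past 1.5-fold higher in HFD with both constructs in these counts, as Serpinb5 was. With the same floor 5 of 10 were lower with shNrf3 in HFD and 2 of 10 in NC, and 0 were higher in either, where Serpinb5 differed by 0.46 and 0.36. Of 5 epithelial markers past the filter, 2 were higher and 1 lower in HFD with shNrf3 (median 0.51). With shCtrl 3 were higher and 0 lower (median 0.65), beside the same diet shares of all genes. Krt18 was higher with both constructs (0.76 and 0.74). For shNrf3 against shCtrl, 0 of the 5 were higher and 3 lower in each diet, beside 9.12% and 20.8% in HFD and 26.8% and 13.5% in NC.

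Macrophages are a known source of Serpinb2. Of 9 macrophage markers 0 were higher and 3 lower in HFD with shNrf3, beside 8.84% and 14.4% of all genes. With shCtrl 3 were higher and 2 lower, beside 31.2% and 10.7%. Their medians were -0.35 and 0.38, so these markers had no common diet direction. Lysozyme (Lyz2) read 16.09 on shNrf3-HFD and 15.06 on shCtrl-HFD, against 16.56 on shNrf3-NC and 15.07 on shCtrl-NC. The arginase gene Arg1 (-0.79 with shNrf3 and -1.93 with shCtrl) and the mannose receptor gene Mrc1 (-1.002 and -0.60) were lower in HFD with both constructs, as Serpinb2 was. The 3 markers higher in HFD with shCtrl, named after their values were seen, were Fcgr1, C1qa and Cd14. They differed by 1.53, 1.51 and 0.60 with shCtrl, and by 0.13, -0.19 and -0.78 with shNrf3. Of 9 fibroblast markers, 7 were lower and 0 higher in HFD with shNrf3 (14.4% and 8.84% of all genes). With shCtrl 5 were lower and 1 higher (10.7% and 31.2%), and the medians were -1.34 and -0.65. Their summed log2 signal was 15.9 on shNrf3-HFD and 17.6 on shCtrl-HFD, against 17.6 on shNrf3-NC and 18.5 on shCtrl-NC. Collagen III (Col3a1) read 14.99 on shNrf3-HFD and 16.91 on shCtrl-HFD, against 16.73 on shNrf3-NC and 17.56 on shCtrl-NC, so shNrf3-HFD was the lowest array for it as for Serpinb2. No fibroblast or macrophage marker lay below the control median on all arrays. The part of these cells in the serpin differences was not tested.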

How the data were processed

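Biotin-labelled cRNA from 100 ng of total tumor RNA was read on 4 Affymetrix arrays, per the labels' protocols. The authors deposited log2 values made with Affymetrix Expression Console and RMA, per the submitters' processing notes. Their versions and the genome build are not stated in the sources at hand. Of 28846 rows, 22206 are transcripts and 5222 negative controls. An array gives no depth of counts, and its control rows bound what is measurable.

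The platform annotation named 19572 probe sets with 1 symbol each and left 2634 transcript rows unnamed. All 19572 Entrez IDs matched the RefSeq table. For 55 genes with several probe sets the one with the highest mean was taken. The background was the 10021 genes whose mean reached 5.73, the median of row means. With 1 array a group no test was run. A difference counts as called at 1.5-fold. A reading below the control median bounds a difference. Named genes are the members, Nfe2l3, listed genes past 1.5-fold the same way in both comparisons of a kind, Plg, Serpinf2, the 3 nearest profiles, the highest markers and markers at control level. Genes flanking the serpin cluster were named by position. Members and lists were chosen with earlier results of these data known. Scripts (Python 3.11.15, R 4.3.3, limma 3.58.1 for loess and quantile scaling) were tested on simulated data.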

Additional observations from a re-analysis of the deposited data

Results flagged for a closer look

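Some genes differed in opposite directions between constructs or diets, with at least 1 side past 1.5-fold for members and both sides for listed genes. None of these differences between differences was tested, since each group has 1 array. For diet (HFD minus NC), Plat differed by 0.17 with shNrf3 and -0.66 with shCtrl, Plaur by -0.78 and 0.19, S100a10 by -0.35 and 0.97 and the annexin gene Anxa7 by -0.66 and 0.81. For construct (shNrf3 minus shCtrl), S100a10 differed by -0.41 in HFD and 0.91 in NC, and Serping1, the C1 inhibitor gene, by -1.86 and 1.58.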

How the results depend on the processing

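The 28 member differences were recomputed under 7 settings (centring, cyclic loess, quantile normalization, 2 floors on low readings, a 2-fold threshold and the lowest probe set). Of the 196 values 181 kept their side of the threshold, 10 dropped under it, 5 passed it and 0 that were past it changed sign. Many of the 181 could not move. Each member has 1 probe set and read above the control median on all 4 arrays. The lowest probe set and the floor at that median thus left every value as it was. The floor at the 75th percentile could change only Serpinb5. Serpinb2 in HFD minus NC ran from -4.45 to -4.23 with shNrf3 and from -3.10 to -2.58 with shCtrl, and Serpinb5 from 1.56 to 1.69 and from 0.86 to 1.62. Numbers of called members moved as follows. At 2-fold there were 0 higher with shNrf3 in HFD (1 at 1.5-fold), 1 higher in NC (2), 1 lower for diet with shNrf3 (2), and 1 higher and 1 lower for diet with shCtrl (2 each). After cyclic loess and after quantile normalization 1 was higher for diet with shCtrl (2) and 3 lower (2, with Plau added). Under both scalings 2 were higher with shNrf3 in HFD (1) and 1 higher in NC (2). After quantile normalization 1, Serpinb2, was lower with shNrf3 in NC (0). After centring 1 was lower for diet with shCtrl (2). With a level filter at the 75th percentile, which Serpinb5 misses, 0 were higher for diet with shNrf3 (1) and 1 with shCtrl (2). Shares of all genes called ranged over the 9 settings from 2.55% to 15.4% higher and 7.13% to 23.1% lower with shNrf3 in HFD, 13.3% to 31.1% and 4.52% to 20.8% in NC, 1.87% to 13.3% and 5.03% to 15.6% for diet with shNrf3, and 14.6% to 37.0% and 3.90% to 19.2% for diet with shCtrl. No paired analysis was possible because each group has 1 array. Signal over background limits Serpinb5 and Plat most.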

Other observations

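Some of the other S100 genes, picked after their values were seen, had the array order of S100a10 in part. S100a6 read 17.32 on shNrf3-HFD and 17.86 on shCtrl-HFD, against 17.68 on shNrf3-NC and 16.21 on shCtrl-NC, and S100a11, the partner of annexin A1, read 15.52 on shNrf3-HFD and 16.06 on shCtrl-HFD, against 15.68 on shNrf3-NC and 14.94 on shCtrl-NC. For both genes, as for S100a10, shCtrl-NC was the lowest array and shCtrl-HFD the highest. HFD minus NC with shCtrl was 1.65 for S100a6, 1.13 for S100a11 and 1.30 for S100a4, and 0.97 for S100a10. With shNrf3 these differences were -0.36, -0.16, 0.43 and -0.35. The annexin partners did not have this order, with Anxa2 at 0.03 and Anxa1 at -0.53 with shCtrl. Nor did S100a16, lowest on shNrf3-HFD, and S100a13, highest on shCtrl-NC, at 0.41 and -0.31 with shCtrl. S100a1 read under the control median on all 4 arrays.

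Serping1, which encodes the inhibitor of C1 and of the contact proteases, was also picked after its values were seen. It read 7.09 on shNrf3-HFD and 8.95 on shCtrl-HFD, against 10.62 on shNrf3-NC and 9.04 on shCtrl-NC, so that HFD minus NC was -3.54 with shNrf3 and -0.09 with shCtrl. The low-density lipoprotein receptor relative Lrp1, which clears activator and inhibitor complexes from the cell surface, read 12.95 on shNrf3-HFD and 13.14 on shCtrl-HFD, against 13.43 on shNrf3-NC and 12.39 on shCtrl-NC, with the lowest value on shCtrl-NC as for S100a10.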
